A study of Mus musculus with 12 samples.

Results

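Excitation-contraction coupling genes were examined in AGO2-bound RNA of mouse tibialis anterior, a fast muscle of the lower leg. The members were 10 genes taken by name, Ryr1, Atp2a1, Casq1, Cacna1s, Cacnb1, Stac3, Jph1, Jsrp1, Trdn and Pvalb, of the 55450 genes in the GENCODE M21 annotation. A listed peak, a stretch of RNA where reads piled up in an immunoprecipitated library, belonged to a member when it overlapped the gene by at least 1 nt on the same strand. No measured value entered the choice of peaks, and every listed peak was kept. The members held 548 of 92451 listed peaks in WT set 1, 726 of 119859 in KO set 1, 980 of 244814 in WT set 2 and 1034 of 256219 in KO set 2.

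Excitation-contraction coupling is the step by which a muscle action potential releases calcium from the sarcoplasmic reticulum. The voltage sensor in the transverse tubule is built on Cacna1s, the pore subunit of the dihydropyridine receptor, with the subunit Cacnb1 and the adaptor Stac3. It opens Ryr1, the release channel of the store, while Jph1, Jsrp1 and Trdn are proteins of the junction between both membranes. Casq1 binds calcium inside the store, Atp2a1 (SERCA1) pumps it back, and Pvalb is a soluble calcium buffer of fast fibers. AGO2 is the protein that carries microRNAs to their target RNA, so a peak marks RNA held near that complex.

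The WT and mir-486 KO mice were 6 months old, the methods describe them as males, and the labels name no treatment. The KO mice carry a CRISPR deletion of the mir-486 hairpin in the whole animal, inside the host gene Ank1. By their labels the WT mice were C57BL/6 and the KO mice FVB N/J, while the methods describe 1 shared background after backcrossing, so genotype and labelled strain cannot be told apart. There were 2 library sets, each with 1 WT and 1 KO immunoprecipitated (IP) library and an input library for each, the input being a small part of the same sample. The methods name more muscles of each genotype than there were IP libraries, and describe the work as done in duplicate, without saying which muscles went into which set. The SD over the 2 sets may therefore be a technical spread.

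The libraries were checked for genotype and tissue. Over Mir486 the WT libraries had 2 listed peaks in set 1, up to a log2 fold of 6.62 over input, and 4 in set 2, up to 4.99. In both KO libraries 0 peaks were listed over the hairpin. All 10 fast muscle markers had listed peaks in every library, whereas of 6 heart markers 2 had listed peaks in each library of set 1 and 3 in each library of set 2, with Nppa, Myl7 and Tnni3 at none in any. The lists hold no read counts, so the depth behind a peak is unknown.

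The sequences that carry the main sites are given first, as RNA-sense strands of GRCm38. The first pair are RefSeq mature microRNAs of the same build, with bases 2 to 8, the seed, in capitals. The Casq1 lines show the 29 nt around the start codon and in the 3′ UTR, each with the match to a seed in capitals (CTACCTC for let-7 and ACAGGGT for miR-10, read on the RNA strand). The Cacna1s line shows the coding site enriched in 3 libraries, with a miR-22 seed match, GGCAGCT, in capitals. The Atp2a1 line shows a site over a whole coding exon, with coding bases in capitals and the intron letters at both ends in lower case. The Ryr1 line shows an intronic site enriched in 3 libraries, with runs of at least 4 copies of TG in capitals.
let-7a-5p: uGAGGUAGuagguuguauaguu
miR-10b-5p: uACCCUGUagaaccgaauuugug
Casq1 start codon, chr1:172219681-172219709, minus strand: cccagattgtaCTACCTCcatgagagcta
Casq1 3′ UTR, chr1:172210190-172210218, minus strand: gtggtctgcatACAGGGTgcttgaggtcc
Cacna1s coding site, chr1:136115140-136115277, plus strand: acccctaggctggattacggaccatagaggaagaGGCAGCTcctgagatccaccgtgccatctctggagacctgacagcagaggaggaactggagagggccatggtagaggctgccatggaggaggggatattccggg
Atp2a1 coding site, chr7:126460690-126460807, minus strand: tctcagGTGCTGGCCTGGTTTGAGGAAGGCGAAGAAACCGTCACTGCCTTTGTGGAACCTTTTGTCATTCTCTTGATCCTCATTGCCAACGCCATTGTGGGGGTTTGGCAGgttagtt
Ryr1 intronic site, chr7:29034007-29034217, minus strand: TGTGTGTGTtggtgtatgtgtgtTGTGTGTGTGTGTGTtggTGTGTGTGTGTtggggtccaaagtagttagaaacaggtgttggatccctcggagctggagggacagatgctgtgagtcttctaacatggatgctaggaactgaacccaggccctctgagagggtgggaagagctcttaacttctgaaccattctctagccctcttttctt

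The first comparison asked how strongly AGO2 held these RNAs relative to input. The value of a peak is the deposited log2 fold of its reads in IP over input. Peaks with a log2 fold of 3 or more and a deposited −log10 p of 3 or more are called enriched. Enriched member peaks numbered 15 in WT set 1, 2 in KO set 1, 8 in WT set 2 and 4 in KO set 2. These were 2.74%, 0.275%, 0.816% and 0.387% of the member peaks, against 3.57%, 0.848%, 1.42% and 1.23% of all listed peaks. In all 4 libraries the members' share was below that of all peaks. At a log2 fold of at least 1 the members had 88, 11, 83 and 61 peaks, or 16.1%, 1.52%, 8.47% and 5.9%, against 7.14%, 1.99%, 5.37% and 4.72% of all peaks in the same order. By that lower fold the members' share was above the background in WT set 1 and in both libraries of set 2, and below it in KO set 1. The 10 fast muscle markers had 77.1%, 13.5%, 29.5% and 30.9% in the same order, above the members in every library. The 8 slow muscle markers had 25.9%, 2.26%, 1.54% and 0%.

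The median member peak stood at 0.40 in WT set 1, −0.37 in KO set 1, −0.31 in WT set 2 and −0.37 in KO set 2, on the log2 scale of IP over input. All listed peaks had medians of 0.68, 0.38, 0.47 and 0.45. The order below follows the voltage sensor, the channel, the junction and the store.

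Cacna1s, the voltage-sensing pore subunit, had gene medians of −0.13 in WT set 1, −0.77 in KO set 1, −0.87 in WT set 2 and −0.91 in KO set 2. At most 2.52% of genes with at least 10 listed peaks had a lower median in any of these libraries. Cacnb1, its intracellular partner, had 1.57, −0.27, 0.06 and −0.25 in the same order, with WT set 1 standing above the other libraries. Stac3 had 1.16, 0.65, 0.30 and −0.44.

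Ryr1, the release channel, had medians of 0.29 in WT set 1, −1.05 in KO set 1, −0.69 in WT set 2 and −0.66 in KO set 2. In the junction, Jph1 (which holds both membranes together) had 0.46, 0.04, 0.56 and 0.30 in the same order. Trdn, an anchor between Ryr1 and the calsequestrin store, had 0.46, 0.38, 0.47 and 0.24, the narrowest range of the 10 genes. Jsrp1, a junctional protein that binds the voltage sensor, had 1.03, 0.36, 1.85 and 1.49. In set 2 the Jsrp1 medians were above those of 98.6% of genes in WT and 97.3% in KO, but in KO set 1 above only 27.9%.

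Atp2a1, the calcium pump, had medians of 0.04 in WT set 1, −1.38 in KO set 1, −1.12 in WT set 2 and −0.99 in KO set 2. Only 5.29%, 0.541%, 0.573% and 1.3% of genes lay lower. Its exons held the most exonic peaks per length of the 10 genes in every library, with 18.7, 21.6, 33.6 and 33.9 peaks per kb of exon, against 3.4, 3.8, 5.8 and 5.2 for Jph1. Casq1, the store protein, had medians of 0.77, 0.55, 0.63 and 0.34. Pvalb, the buffer, had 2.77 in WT set 1 and −0.43, −0.51 and −0.14 in the others. Thus Pvalb held 5 of the 15 enriched peaks of WT set 1, between 3.30 and 4.66, and 0 in the other libraries.

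**Figure D1:**
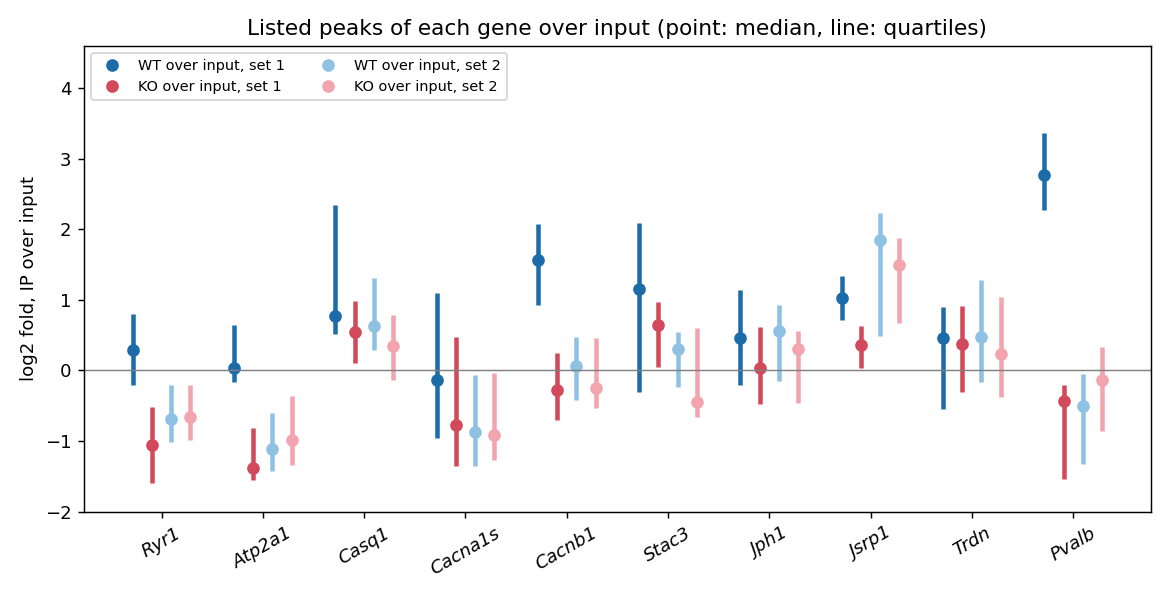
Median (point) and quartiles (line) of the log2 fold of IP over input across the listed peaks of each gene, in each of the 4 libraries. Atp2a1, Ryr1 and Cacna1s lie below 0 in all libraries but WT set 1 (for Cacna1s in that library too), and Pvalb reaches 2.77 in WT set 1 alone.

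The peaks fell mainly in coding sequence. Of the member peaks, 69.5% (95% Wilson interval 65.5 to 73.2) in WT set 1, 55.2% (51.6 to 58.8) in KO set 1, 64.0% (60.9 to 66.9) in WT set 2 and 67.8% (64.9 to 70.6) in KO set 2 had their midpoint in coding sequence. The shares over all listed peaks were 51.8%, 35.5%, 40.2% and 39.7%. In the 3′ UTR, where microRNA sites are best known, were 4.56%, 4.13%, 4.69% and 3.77% of the member peaks, against 19.3%, 18.3%, 12.2% and 11.4% of all peaks. These pooled shares lean on Ryr1, which has 15183 coding nt in an mRNA of 15300 nt. It had 1 peak in its 3′ UTR in each library, of 184, 204, 316 and 352 listed peaks. The shares without Ryr1 were not computed. The intervals cover counting error only, and neighbouring peaks are pieces of the same RNA. The intronic peaks came mostly from Trdn and Jph1, the longest genes with 396156 and 133330 nt. There, 68.7%, 77.2%, 72.0% and 73.7% of the peaks were intronic, against 4.16%, 12.5%, 6.83% and 5.29% for the other 8 genes. Over all listed peaks the intronic share was 21.4%, 39.5%, 41.7% and 43.1%.

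Within a gene the values changed along the mRNA, and the place of the highest exonic peak with a −log10 p of 3 or more recurred in several. There were 4 genes with such a peak in all 4 libraries. In Cacna1s this peak lay 4703 nt from the start codon in WT set 1, 4729 nt in KO set 1, 4671 nt in WT set 2 and 4701 nt in KO set 2, in a coding sequence of 5556 nt. In Ryr1 it lay 921, 919, 947 and 951 nt from the start codon, in a coding sequence of 15183 nt. In Atp2a1 it lay at 288, 267, 324 and 324 nt, and in Casq1 at 47, 24, 70 and 71 nt. The positions in the 4 libraries thus spanned 58 nt in Cacna1s, 32 nt in Ryr1, 57 nt in Atp2a1 and 47 nt in Casq1. Over the 3 libraries that had one, the positions spanned 13 nt in Stac3, 72 nt in Jph1, 115 nt in Cacnb1 and 255 nt in Jsrp1. By contrast, the highest exonic peak of Trdn lay at 118 nt in WT set 1 and at 1805 nt in WT set 2.

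The stretches around these peaks were chosen after the profiles were seen and are described with no test. Between 4300 and 5000 nt of the Cacna1s mRNA, the median log2 fold over input was 2.21 in WT set 1, 0.62 in KO set 1, 1.68 in WT set 2 and 0.85 in KO set 2. In the rest of its exons it was −0.47, −1.07, −1.14 and −1.05. The first 400 nt of Atp2a1 coding sequence had medians of 2.35, 0.37, 0.72 and 0.56, against −0.02, −1.42, −1.21 and −1.07 in the rest. The first 200 nt of Casq1 had 5.47, 2.33, 2.36 and 2.58, against 0.62, 0.54, 0.52 and 0.21. In Ryr1 the stretch from 700 to 1100 nt had 2.07, −0.81, 0.07 and 0.39, against 0.24, −1.27, −0.75 and −0.71, so it stayed below 0 in KO set 1. In both genotypes and sets the values were thus highest towards the end of the Cacna1s coding sequence and at the beginning of those of Atp2a1 and Casq1.

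**Figure D2:**
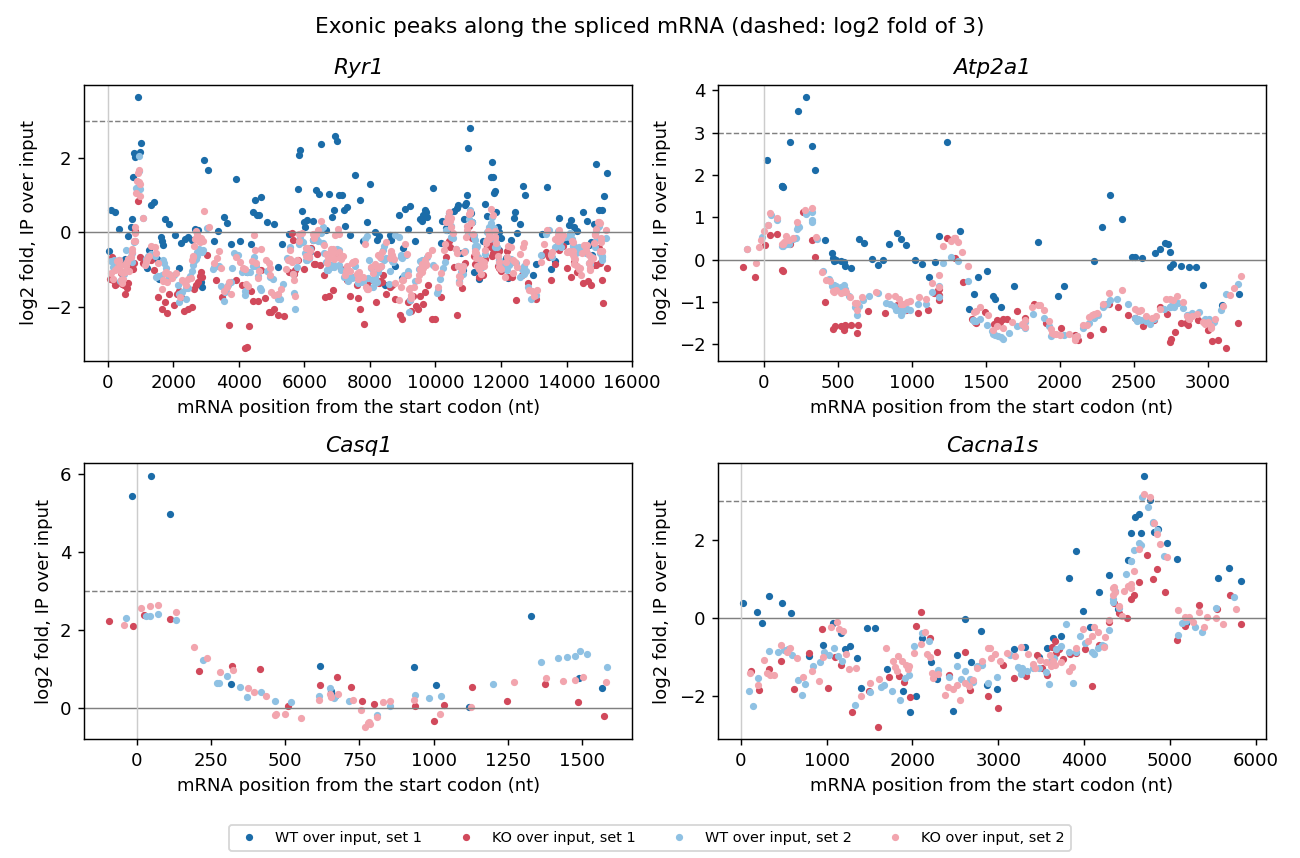
Log2 fold of IP over input of each exonic peak (point) against the position of its midpoint in the spliced mRNA, counted in nt from the start codon, for 4 genes and 4 libraries, with a dashed line at 3. Within each of these genes, the highest points of Casq1 stand near its start codon (5.96 in WT set 1) and those of Cacna1s towards the end of its coding sequence in all 4 libraries.

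Merged across libraries, the enriched peaks formed 13 sites in 7 of the 10 genes, and Stac3, Jph1 and Jsrp1 had none. Of these sites 6 lay in coding sequence, 1 in a 5′ UTR and 6 in introns, and 0 in a 3′ UTR. Enrichment was met in 1 library at 9 sites, in 2 libraries at 2 sites, in 3 libraries at 2 sites and in all 4 at 0 sites, although 10 sites had a listed peak in every library. Among the enriched peaks of WT, 4 of 23 met an enriched one in the other set (17.4%, with a Wilson interval of 6.98 to 37.1), and among those of KO 2 of 6 did (33.3%, 9.68 to 70). Over all listed peaks enriched by the same thresholds, these shares were 36.2% in WT and 36.0% in KO.

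The Cacna1s coding site at chr1:136115140-136115277 was enriched in 3 libraries. Its highest log2 fold over input was 3.65 in WT set 1, 3.10 in WT set 2 and 3.17 in KO set 2, against 1.62 in KO set 1. The miR-22 match it holds was found at 2.09% of all coding and 5′ UTR peaks of WT set 1, which differ in length from this site. In windows of 138 nt at those peaks, the length of the site, the word occurred in 2.98%. WT over KO, the site had a median log2 fold of 1.80 at the WT peaks of set 1 and −0.51 at those of set 2, so the sets pointed in opposite directions.

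The Casq1 site spans the start codon, at chr1:172219526-172219760. All 3 of its WT set 1 peaks were enriched, between 4.97 and 5.96. The peaks there lay between 2.10 and 2.39 in KO set 1, between 2.26 and 2.42 in WT set 2 and between 2.14 and 2.64 in KO set 2. Only WT set 1 passed the thresholds here, so its being the highest library follows from how the site was named. Its median over all listed peaks (0.68) was the highest too. The other 3 libraries overlapped each other. WT over KO, the WT peaks of the site lay between 2.00 and 2.41 in set 1 and between −0.10 and −0.04 in set 2. The let-7 match covers bases −8 to −2 before the start codon, in the 5′ UTR, and this word occurs in 2.98% of windows of 235 nt at coding and 5′ UTR peaks of WT set 1. The site also holds matches to miR-29a-3p and miR-23a-3p. Of the 13 enriched sites, 6 held a match to at least 1 of 14 microRNAs, 3 of them among the 7 coding and 5′ UTR sites. In windows of the same length at all listed peaks of the same region in WT set 1, any of the 14 words was found in 28.7% on average over the 13 sites, and in 19.1% over those 7. The words for miR-486 were not among the 14. A match is a stretch of letters and shows no binding.

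The remaining coding sites passed the thresholds in WT set 1 only. In Atp2a1, at chr7:126460690-126460807, the highest log2 fold was 3.83 in WT set 1, 1.12 in KO set 1, 1.13 in WT set 2 and 1.73 in KO set 2. The value of 1.73 came from an overlapping peak with its midpoint in an intron. The highest exonic peak of KO set 2 had 1.23. In Ryr1, at chr7:29110845-29110972, it was 3.62, 0.85, 2.04 and 1.67. In Cacnb1, at chr11:98005691-98005786, it was 3.55, 0.91, 2.30 and 1.53. That WT set 1 was the highest library at these 3 sites follows from their passing the thresholds there only. Both set 2 libraries lay above 1 at all 3 sites. Pvalb had a site at its 5′ end, at chr15:78206332-78206402, with 4.66 in WT set 1 and 0.33, 0.04 and 0.45 in the others. A Pvalb coding site, at chr15:78204084-78204153, had 3.94 in WT set 1 and −0.21, −0.01 and 0.33 in the others.

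Ryr1 and Trdn had the intronic sites. The Ryr1 site at chr7:29034007-29034217 reached 4.12 in KO set 1, 3.52 in WT set 2 and 3.99 in KO set 2, and 2.01 in WT set 1. Soft-masked repeat letters made up 67.8% of it, and a run of 4 TG copies occurs in 10.1% of windows of 211 nt at intronic peaks of KO set 1. In Trdn, the intron at chr10:33105767-33106113 had 3.85 in WT set 1 and 3.08 in WT set 2, against 2.71 in KO set 1 and 2.14 in KO set 2. It was enriched in both WT libraries and in neither KO library, yet WT over KO its medians were 0.16 in set 1 and 0.79 in set 2, under the threshold. A further Trdn intron, at chr10:33250137-33250358, had 3.28 in WT set 2 and 4.10 in KO set 2.

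The second comparison asked whether WT and mir-486 KO muscle differed in the amount of AGO2-bound RNA of these genes. The deposited direct lists hold the log2 fold of the WT library over the KO library at peaks called in WT, and the opposite ratio at peaks called in KO. They compare IP libraries without input, so by these lists alone more RNA and more AGO2 on the RNA cannot be told apart. More fibers of a type and more RNA per fiber cannot be told apart either. The ratio of the inputs is given further below. An exact two-sided permutation test of 2 libraries against 2 cannot go below p = 0.333, so the sets are shown side by side and no test between genotypes was made.

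Past both thresholds, 0 member peaks were higher in WT in set 1 or in set 2, where 0.469% and 0.0192% of all peaks were. Higher in KO were 10 member peaks (1.38%) in set 1, against 0.179% of all peaks, and 0 in set 2, against 0.0144%. At a log2 fold of at least 1, the members had 151 peaks higher in WT in set 1, or 27.6% against 4.85% of all peaks, and 5 in set 2, or 0.51% against 0.403%. Higher in KO were 18 in set 1, or 2.48% against 0.755%, and 3 in set 2, or 0.29% against 0.144%. In set 2 the members' share of WT peaks was thus near the background. Among the peaks of the 10 fast muscle markers, 38.8% were higher in WT by the lower fold in set 1 and 0% in set 2. The shares in set 1 were 21% of 143 peaks for 8 slow muscle markers, 22.2% of 18 for the heart markers and 30.8% of 13 for 5 red blood cell markers, and 8.33% of 12, 0% of 42 and 4.55% of 22 for adipocyte, endothelium, and nerve and Schwann cell markers. In set 2 the red blood cell markers were at 68.6% of 35 peaks and the other lists at 0%. The red blood cell markers thus leaned to WT in both sets, with median log2 folds of 1.44 and 1.36. The part of these other cell types in the members' values was not tested. The deposited p depends on reads, and the part of read depth in the share of these abundant muscle RNAs was not tested.

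Of the 151 WT peaks of set 1, Ryr1 had 70 among its 184 and Atp2a1 52 among its 68. Atp2a1, the pump, had a median log2 WT over KO of 1.37 at the WT peaks and 1.26 at the KO peaks of set 1. In set 2 the same medians were −0.18 and −0.19. The mean over the sets at the WT peaks was 0.59 ± 1.10 (SD, n = 2), so the sets differed by more than the mean.

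Ryr1, the channel, had 0.88 and 0.79 in set 1, and −0.26 and −0.23 in set 2. Casq1 had 0.94 and 0.60, then 0.01 and 0.01. Pvalb had 0.65 and 0.68, then −0.08 and −0.08. Each of these stood above 0 in set 1 and near or below 0 in set 2.

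In the voltage sensor, Cacna1s had 0.38 at the WT peaks and 0.25 at the KO peaks of set 1, and −0.35 and −0.34 in set 2. Cacnb1 had 1.03 and 1.25, then 0.13 and 0.13, and was above 0 in all 4 lists. Stac3 had 1.42 and 0.61, then −0.03 and −0.09. Jsrp1 had 0.31 and 0.57, then −0.10 and −0.10.

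The choice of peak list turned the sign for the junctional genes with many intronic peaks. Trdn had a median of 0.32 at the WT peaks but −1.16 at the KO peaks of set 1, and 0.42 and 0.12 in set 2. Jph1 had 0.48 and −0.56, then 0.11 and −0.03. Trdn exons had medians of 0.19 and 0.05 in set 1, then 0.24 and 0.23, while its introns had 0.48 and −1.43 in set 1. The value 1.43 is the most frequent log2 fold of that KO list, given to 21.3% of all its peaks and 15.3% of the intronic member peaks.

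Across the 10 genes, 8 had medians above 0 in both lists of set 1, and 6 of these had medians below 0 in both lists of set 2. For all genes with 10 or more listed peaks, lower quartiles at the WT peaks were 0.48 (set 1) and 0.09 (set 2). At these peaks, medians above 0 in set 1 were thus common to most genes, and medians below 0 in set 2 were not. At the KO peaks the middle gene had a KO over WT of 0.61 and 0.20, so most lay below 0 once turned. How many genes met both lists was not counted. Over all member peaks the median was 0.80 in set 1 and −0.10 in set 2 at the WT peaks, a mean of 0.35 ± 0.64 (SD, n = 2). At the KO peaks it was 0.27 and −0.14, a mean of 0.06 ± 0.29. The mean exceeded its SD for 2 genes, Jph1 (0.29 ± 0.26) and Trdn (0.37 ± 0.07). At the KO peaks their means were −0.29 ± 0.38 and −0.52 ± 0.91. The median of all listed peaks in each direct list leaned to the library that called them, by 0.74 and 0.72 in set 1 and 0.30 and 0.27 in set 2.

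**Figure D3:**
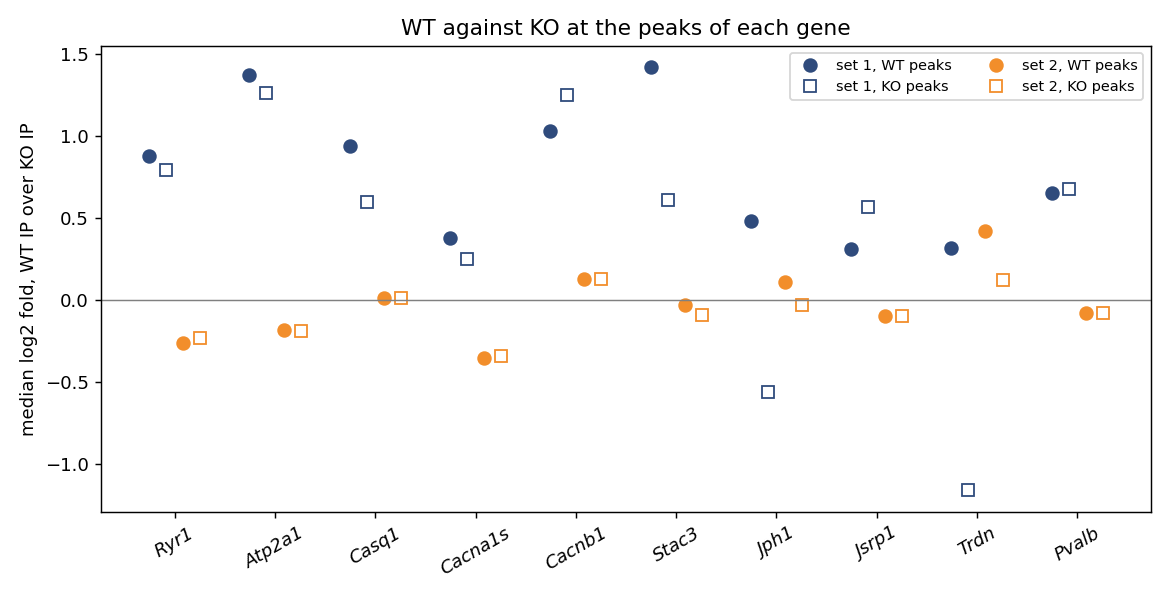
Median log2 fold of WT IP over KO IP across the peaks of each gene, at the WT peaks (circles) and at the KO peaks with the sign turned (squares), in set 1 (blue) and set 2 (orange). Atp2a1 lies at 1.37 and 1.26 in set 1 and at −0.18 and −0.19 in set 2, and Trdn and Jph1 change sign between the lists of set 1.

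The 10 member peaks past both thresholds in KO over WT of set 1 were 7 of Ryr1, between chr7:29026474 and chr7:29045342, and 3 of Trdn. Their log2 folds lay between 3.01 and 4.09 and their −log10 p between 3.17 and 4.22. Of the Ryr1 peaks 5 were intronic and 2 lay in noncoding exons, and all 3 Trdn peaks were intronic. None was enriched over input in KO set 1, 0 had a listed WT peak in set 1, 0 had a listed KO peak in set 2 and 3 had a listed WT peak in set 2. The same shares over all KO peaks past both thresholds were not counted. Over input in KO set 1 these peaks lay between 0.09 and 3.05. Several Ryr1 peaks shared 1 pair of fold and −log10 p, 3.3 with 3.99 or 3.16 with 3.74. The reads behind them are unknown. Ryr1 had 6 intronic peaks in WT set 1 and 31 in KO set 1, and 28 and 22 in set 2. These were 3.26%, 15.2%, 8.86% and 6.25% of its listed peaks. Over all listed peaks the intronic share was 21.4%, 39.5%, 41.7% and 43.1% in the same order, so it was also higher in KO than in WT in set 1.

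Of the 5 WT peaks of set 2 at the lower fold, 4 lay in the Casq1 3′ UTR. These adjoining peaks, over chr1:172210032-172210127, had a log2 WT over KO of 1.02, 1.19, 1.16 and 1.08. Over input the same 4 peaks had 1.30, 1.33, 1.47 and 1.39 in WT set 2, against 0.66 to 0.79 across the Casq1 3′ UTR peaks of KO set 2. In set 1 the WT peak at chr1:172210038-172210111 had −0.41, and the next peak, chr1:172210112-172210355, had 0.94. The miR-10 match lies in this neighbouring stretch, and occurs in 2.12% of windows of 244 nt at 3′ UTR peaks of WT set 1. The fifth WT peak was an intronic one of Jph1, with 2.71. The 3 KO peaks of set 2 were all in Cacna1s coding sequence, around 1191 and 1837 nt from the start codon, where all libraries were below input.

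In all, 6 of 25 3′ UTR member peaks held a seed match in WT set 1, 6 of 30 in KO set 1, 7 of 46 in WT set 2 and 7 of 39 in KO set 2, in peaks extended by 25 nt. These were 24%, 20%, 15.2% and 17.9%, against 31.2%, 23.5%, 29.3% and 29.5% of all 3′ UTR peaks. The words were those of 14 microRNAs, on the RNA strand.

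The ratio of both inputs follows from the lists, as WT over KO less WT over input plus KO over input, at exonic peaks that overlapped by at least 50% of both. For Pvalb in set 1 it had a median of −2.40 over 8 peaks (WT input over KO input), where WT IP over KO IP was 0.60. The Pvalb difference between 2.99 over input in WT and −0.36 in KO at these peaks thus went with a lower WT input. For Atp2a1 in set 1 the input ratio was −0.11 over 41 peaks, beside an IP ratio of 1.37. Ryr1 had −0.64 beside 0.84, Cacnb1 −1.11 beside 1.03 and Casq1 0.56 beside 0.94. In set 2 the input ratio lay between −0.47 for Stac3 and 0.31 for Pvalb. The medians over all matched peaks, intronic ones included, were −0.38 in set 1 and −0.09 in set 2, so they cover a wider set of peaks. The part of input in these differences was not tested further.

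**Figure D4:**
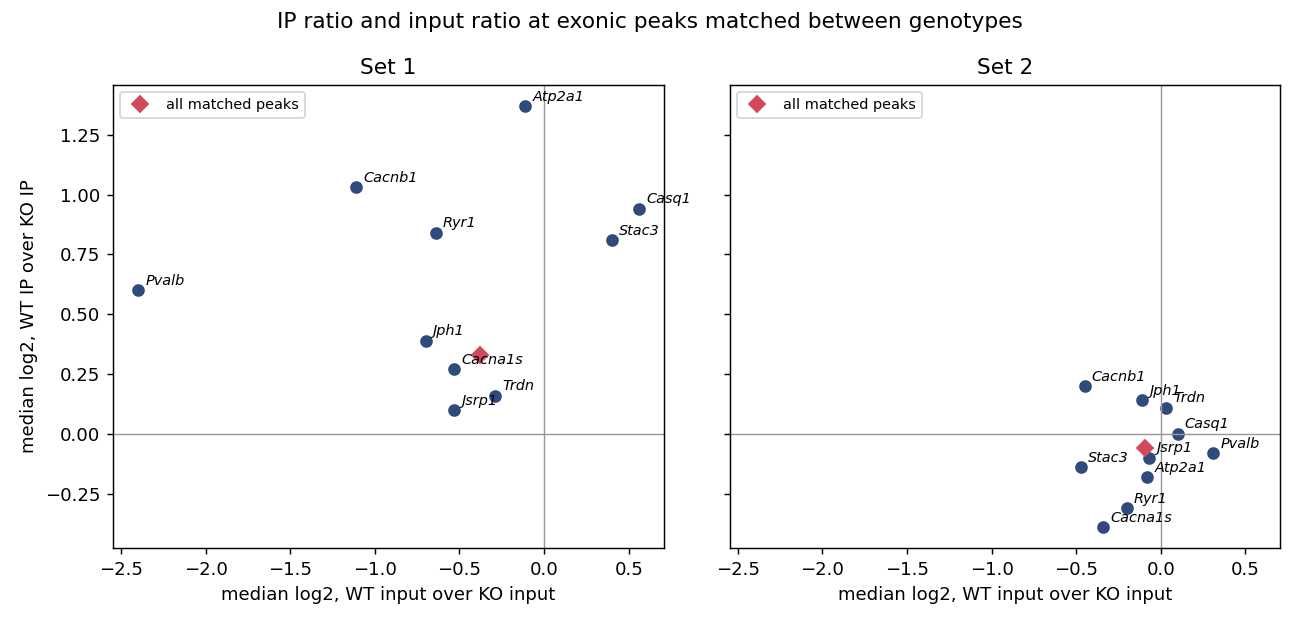
Median log2 ratio of WT IP over KO IP against that of WT input over KO input at peaks matched between genotypes, in set 1 and set 2. Blue points are the exonic peaks of each gene, and the red point is all matched peaks, intronic ones included. Pvalb stands at −2.40 on the input axis in set 1, and the genes lie between −0.39 and 0.20 on the IP axis in set 2.

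Across matched exonic member peaks, the log2 folds over input of both WT libraries had a Spearman correlation of 0.604 over 274 pairs, and those of both KO libraries 0.724 over 314 pairs. Between genotypes it was 0.522 over 267 pairs in set 1 and 0.88 over 481 pairs in set 2. These are correlations across peaks, which share genes and are not replicates. The correlation was highest between WT and KO of set 2. Over all matched peaks it was 0.49 between the WT libraries and 0.589 between the KO libraries. Between genotypes it was 0.479 in set 1 and 0.697 in set 2, so the highest was the same pair.

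A list of 24 other genes of calcium handling was examined beside the members. All 24 had listed peaks in every library but KO set 1, where 23 did. Enriched peaks were found in 3 of them in WT set 1, in 1 in KO set 1, in 4 in WT set 2 and in 2 in KO set 2. These were 6 of 439 listed peaks (1.37%), 1 of 642 (0.156%), 7 of 1029 (0.68%) and 2 of 1139 (0.176%), each a smaller share than the 3.57%, 0.848%, 1.42% and 1.23% of all peaks. Calm2, a calmodulin gene, had the highest, in its 3′ UTR, with 5.14 in WT set 1, 5.35 in KO set 1, 4.63 in WT set 2 and 4.76 in KO set 2. All 4 libraries were thus past the thresholds there, unlike at any member site. In the direct lists 1 gene had peaks higher in WT past both thresholds in set 1, Sln (sarcolipin, an inhibitor of the calcium pump), with 3 peaks of 5.07, 4.25 and 4.16. In KO over WT of set 1 1 gene did, Slc8a3, a sodium-calcium exchanger, with an intronic peak of 4.01. The Sln peaks were 0.683% of the 439 WT peaks of the list, against 0.469% of all peaks. The Slc8a3 peak was 0.156% of its 642 KO peaks, against 0.179% of all. In set 2 no gene of the list had such a peak in either direction.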

How the data were processed

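Reads of AGO2 IP and input libraries of tibialis anterior were trimmed with cutadapt, aligned with STAR to GRCm38, and peaks were called with CLIPper in each IP library by the authors, without pooling replicates. The authors deposited 8 peak lists, each with a log2 fold between a pair of libraries and a −log10 p-value of that difference, at most 400 and given only for folds above 0. Of these, 4 are IP over input and 4 compare the IP libraries of both genotypes directly. The miR-486-enriched libraries were not analysed here. Absolute depth is unknown.

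From these lists, member peaks were found by strand-specific overlap of at least 1 nt with GENCODE M21 genes (the labels name M24, for the same assembly). Regions were read at the peak midpoint, coding sequence first, and positions on the transcript with the longest coding sequence. Functions were tested on simulated data. Shares have 95% Wilson intervals. The members and lists were chosen with earlier results of these data known. Sites named are the enriched sites, the member peaks past both thresholds in a direct list, and those of the calcium handling list. Of 17 microRNA names sought, 13 had an entry in the RefSeq table, and miR-133b-3p was added. The names without an entry were miR-1a-3p, miR-133a-3p, miR-378a-3p and miR-486a-5p. Alternatives were other thresholds, overlaps, regions, weights and seed words, and each set alone. Python 3.11.15, pandas 2.3.3, numpy 2.4.6 and scipy 1.17.1 were used.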

Additional observations from a re-analysis of the deposited data

How the results depend on the processing

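The medians and counts rest on 1 library per genotype and set. The lists hold no values per library, so no paired test was fitted, and the values come from no test. The direct lists already are ratios within a set, so the means over the 2 sets are means of paired values, and 2 pairs could not give a two-sided sign-flip p below 0.5. The median log2 WT over KO ranged from −0.10 to 0.80 when either set was left out, so its sign rests on set 1, and was 1.07 with only peaks of a −log10 p of at least 3, a value given only to folds above 0. Enriched peaks in WT set 1, KO set 1, WT set 2 and KO set 2 numbered 88, 11, 83 and 61 at a log2 fold of at least 1. At a log2 fold of at least 4 they numbered 5 in WT set 1, 1 in WT set 2 and 1 in KO set 2. With exon-overlapping peaks only they numbered 0 in KO set 1, 1 in WT set 2 and 2 in KO set 2. At a −log10 p of at least 5 there was 1 in KO set 1. In the direct lists a log2 fold of at least 1 gave 151 and 5 for WT over KO and 18 and 3 for KO over WT. The 10 KO peaks of set 1 became 1 at a log2 fold of at least 4, 0 at a −log10 p of at least 5 and 0 when an enriched peak had to overlap. The recurring share was 38.0% for WT at a log2 fold of at least 1, and for KO 0.0% where overlaps had to cover 50% of each peak and 0.0% at a −log10 p of at least 5. Read at the peak 5′ end, coding sequence took 53.8% (WT) and 50.6% (KO), introns 38.7% and 42.5% and 3′ UTRs 4.11% and 3.41%. With 3′ UTR before coding sequence, 3′ UTRs took 5.91% and 5.18%. Matches to positions 2 to 7 were in 11, 10, 17 and 13 3′ UTR peaks. The other 61 values moved by less than the spread between sets, the interval of the share, or 1.5 times for counts. Settings added after seeing the data (KO peaks in exons, without Ryr1, without Trdn and Jph1) gave 0.32, 0.37 and 0.35 for the median.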

Other observations

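No listed peak lay on the opposite strand of a member in any of the 4 libraries (0, 0, 0 and 0). Member peaks that also overlapped another gene on the same strand numbered 1 in WT set 1, 4 in KO set 1, 1 in WT set 2 and 1 in KO set 2.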
